A study of Mus musculus with 4 samples.

Results

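The genes described here encode 8 digestive enzymes of the intestinal brush border: the peptidases Mep1a, Mep1b, Anpep, Dpp4 and Enpep, and the disaccharidases Sis, Lct and Treh. They were chosen by name, and 7 of the 8 had a probe of their own on the array, among 16390 named genes in all, with 1 probe for each of the 7. Sucrase-isomaltase, Sis, was not measured under a name of its own. The only candidate probe is named Si on the array, a name that, when letter case is ignored, belongs to 3 genes (Sis, Pmel and Ebp) and that in this exact spelling is a synonym of Pmel. Its spot intensity was 24.2 (Dclk1+) and 22.8 (Dclk1-) in tumors and 23.5 (Dclk1+) and 21.1 (Dclk1-) in normal tissue, above background in Dclk1+ normal cells only, and it is left out of every count below.

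The series sorted mouse small intestinal cells by Dclk1, a doublecortin-like kinase that marks tuft cells, and hybridised total RNA of 4 samples to 1 array each. The Dclk1+ tumor sample pooled cells from 7 Dclk1CreERT2/+; ApcMin/+ mice aged over 16 weeks, and the Dclk1- tumor sample came from 1 such mouse of 17 weeks. The Dclk1+ normal sample pooled 2 Dclk1CreERT2/+ mice, and the Dclk1- normal sample came from 1 such mouse, all aged 26 weeks and without the ApcMin allele, which truncates Apc and starts intestinal adenomas. All animals were male and all carried the Dclk1CreERT2 allele, a tamoxifen-inducible Cre, so no sample lacks it. Dclk1+ tumor cells were sorted for GFP, whose source allele the genotype labels do not name, while the sources used here give no gate for the other samples. Tumor and normal samples also differ in genotype and age, so these and histology cannot be told apart.

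Brush border hydrolases are anchored in the apical membrane of enterocytes, the absorptive cells of the villus, where they finish the digestion of food. Peptidases cut oligopeptides to amino acids and short peptides, disaccharidases cut sugars to monosaccharides, and neighbouring transporters take up the products. Their genes are switched on as cells leave the crypt and mature, which makes them classic markers of enterocyte differentiation. Tuft cells, which are rare and chemosensory, also have an apical tuft of microvilli.

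Levels are quoted as the authors' normalised intensities, which are linear and put the median listed probe of each array near 25. Differences are log2 differences after background correction with an added offset and quantile normalization over the 4 arrays; the offset shrinks the differences of dim genes, so the ratio of levels is given beside the differences of members that were 2-fold apart on either scale. The 2 scales can differ in sign for small differences, since the authors' scale places the median gene 0.35 and 0.27 log2 higher in Dclk1+ than in Dclk1- cells of tumor and normal tissue, and at -0.40 and -0.50 log2 in tumor against normal Dclk1+ and Dclk1- cells. A probe counts as above background when its spot lies over 2 SD above the blank spots of its array. Each group has a single array, so nothing could be tested and no p-value is given: every difference is one between 2 arrays, and precision is limited by having 4 arrays in all. In these bulk samples, fewer cells of a type and less RNA per cell cannot be told apart.

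The sorting gene was higher in the Dclk1+ sample of each pair. Dclk1 itself had tumor levels of 61.8 (Dclk1+) and 9.49 (Dclk1-) and normal levels of 736 (Dclk1+) and 179.8 (Dclk1-). The Dclk1- normal level was above the Dclk1+ tumor level and above the median listed probe, so Dclk1- normal cells were not free of Dclk1 transcript. The tuft cell list includes Dclk1 itself, so its count is not independent of the sort. Of its 8 genes with a probe, 7 were above background in the tumor pair and 8 in the normal pair. Of these, 4 in tumors and 7 in normal tissue were higher by 2-fold or more in the Dclk1+ fraction, with none 2-fold lower. Over all genes 1.76% and 5.66% were at least 2-fold higher. The enterocyte list, which has 6 genes with a probe, was above background on all 4 arrays, so no sample was free of enterocyte transcripts. In each tissue 5 of these 6 were lower by 2-fold or more in the Dclk1+ fraction, while Fabp1, a fatty acid binding protein of enterocytes, was at 63956 in Dclk1+ and 14387 in Dclk1- normal cells. Between 63.3% and 70.9% of the 23473 probes were above background.

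In normal epithelium, 4 of the 7 measured hydrolases were lower by 2-fold or more in the Dclk1+ fraction than in the Dclk1- fraction, and 0 were 2-fold higher. Over all 12844 genes above background on 1 or both of these arrays, 5.92% were at least 2-fold lower and 5.66% at least 2-fold higher. The members' median log2 difference was -1.69, against 0.01 over all genes. The 4 lower members were Mep1b, Dpp4, Lct and Enpep, and the other 3, Mep1a, Anpep and Treh, lay between -0.25 and 0.00. Thus the members were not lower together. The count depends on how dim signals are treated: with plain subtraction of the blank mean and in the authors' values Treh was at -1.46 and -1.27, which made the count 5 of 7, beside 19.8% and 16.0% of all genes lower on those scales.

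**Figure D1:**
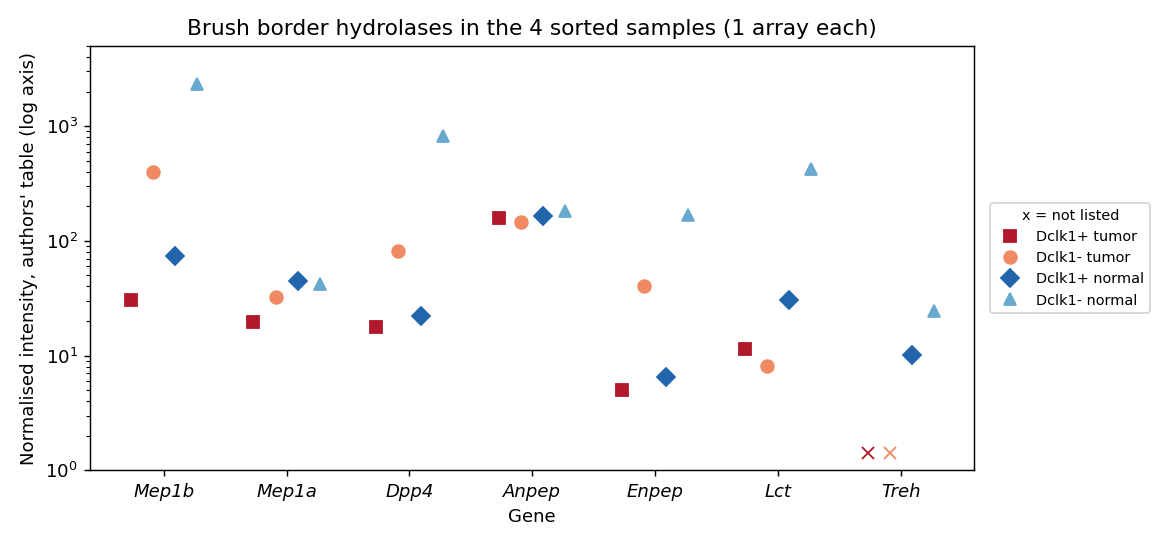
Normalised intensity (authors' table, log axis) of the 7 measured genes, 1 point for each sorted sample; crosses at the foot mark Treh, which is not listed for either tumor sample. Dclk1- normal cells have the highest level for Mep1b, Dpp4, Enpep, Lct and Treh, while the 4 levels of Anpep lie between 146 and 181.

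Mep1b encodes meprin beta, a membrane-bound metalloprotease of the astacin family that trims mucus and peptides at the villus surface. Its tumor levels were 30.2 (Dclk1+) and 397 (Dclk1-), and its normal levels were 74.2 (Dclk1+) and 2322 (Dclk1-). Both Dclk1- samples were far brighter than both Dclk1+ samples, which were themselves above the median listed probe. The log2 difference of Dclk1+ against Dclk1- normal cells was -4.14, and the Dclk1+ level was 3.19% of the Dclk1- level.

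Its partner Mep1a, which encodes the alpha subunit that pairs with beta in secreted or membrane-held complexes, did not share this pattern. Mep1a had tumor levels of 19.5 (Dclk1+) and 32.1 (Dclk1-), and normal levels of 44.9 (Dclk1+) and 41.9 (Dclk1-). All 4 values were dim, and the log2 difference was 0.00 between the normal samples and -0.26 between the tumor samples. On the centred log2 profiles over the 4 arrays, the Euclidean distance between the meprin genes was 3.50, the widest among the 21 pairs of members. Mep1b lay almost as far from the other members of narrow range, Anpep (3.49) and Treh (3.41), so the distance is not particular to the meprin pair. Between Mep1b and Dpp4 it was 1.26.

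Dpp4 encodes dipeptidyl peptidase 4, a serine protease that removes dipeptides ending in proline or alanine and inactivates the incretin hormones; it is also the T cell antigen CD26. Its tumor levels were 17.7 (Dclk1+) and 81.5 (Dclk1-), and its normal levels were 22.2 (Dclk1+) and 822 (Dclk1-). The Dclk1- normal sample stood 37.0-fold above the Dclk1+ normal sample in these values, and the log2 difference was -3.31. The Dclk1+ samples of tumor and normal tissue were at a log2 difference of -0.03, but both were dim, below the median listed probe. Local background made up 83.0% (tumor) and 69.8% (normal) of these spots, and the offset leaves little room for a difference between them. The 37.0-fold ratio also rests on the dim Dclk1+ level.

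The 2 aminopeptidases differed. Enpep encodes glutamyl aminopeptidase, which removes acidic residues from the N-terminus and converts angiotensin II. Its tumor levels were 4.97 (Dclk1+) and 40.4 (Dclk1-), and its normal levels were 6.48 (Dclk1+) and 167 (Dclk1-), a log2 difference of -1.69 between the normal samples and a Dclk1- level 25.8-fold the Dclk1+ level. Both Dclk1+ values were barely above background. Anpep encodes aminopeptidase N, which removes neutral residues and is also known as CD13 on myeloid cells. Its tumor levels were 159 (Dclk1+) and 146 (Dclk1-), and its normal levels were 165 (Dclk1+) and 181 (Dclk1-). All 4 samples were clear of background and close together, and the range of 0.23 log2 was the narrowest of the 7 members.

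Among the disaccharidases, Lct encodes lactase-phlorizin hydrolase, the enzyme that splits milk sugar and that declines after weaning. Its tumor levels were 11.4 (Dclk1+) and 8.09 (Dclk1-), and its normal levels were 30.3 (Dclk1+) and 422 (Dclk1-). Only the Dclk1- normal sample was bright, and the log2 difference of Dclk1+ against Dclk1- normal cells was -2.37, with a Dclk1- level 13.9-fold the Dclk1+ level. Treh encodes trehalase, which splits the sugar of mushrooms and insects into glucose. It was not above background in either tumor sample and stood at 10.2 in Dclk1+ and 24.5 in Dclk1- normal cells, a log2 difference of -0.25, although the Dclk1- level was 2.41-fold the Dclk1+ level. At signals this close to background the offset leaves little room for a 2-fold difference to appear.

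In tumors the same contrast was shallower for the members that differed in normal tissue. Fewer of all genes were 2-fold apart in tumors as well, since the normal pair had 5.92% lower and 5.66% higher. Of 6 members above background in the tumor pair, 1 was lower by 2-fold or more in the Dclk1+ fraction, and 0 were 2-fold higher, against 2.13% lower and 1.76% higher among 12197 genes. That member was Mep1b, at a log2 difference of -2.45, with a Dclk1- level 13.1-fold the Dclk1+ level. Dpp4 was at -0.88 and Enpep at -0.64, on the same side but short of 2-fold on this scale, although their Dclk1- levels were 4.60-fold and 8.12-fold the Dclk1+ levels in the authors' values. With an offset of 16 in place of 50 they were at -1.44 and -1.26, so the count of members at least 2-fold lower was 3, beside 4.63% of all genes. The median over the 6 was -0.45, against 0.01 over all genes.

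For Lct, the contrast between the sorted fractions was seen in normal tissue and not in tumors. Its log2 difference was 0.03 in tumor and -2.37 in normal tissue, as both tumor samples were dim. The Dclk1+ minus Dclk1- difference was less negative in tumor than in normal tissue by 2.44 log2 for Dpp4, 2.40 for Lct, 1.69 for Mep1b and 1.05 for Enpep, and it changed by -0.26 for Mep1a and 0.18 for Anpep. Treh has no such value, as neither tumor sample was above background. Fewer of all genes were 2-fold apart in the tumor pair too, so a shallower contrast is not particular to these members. None of these differences between tissues could be tested.

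**Figure D2:**
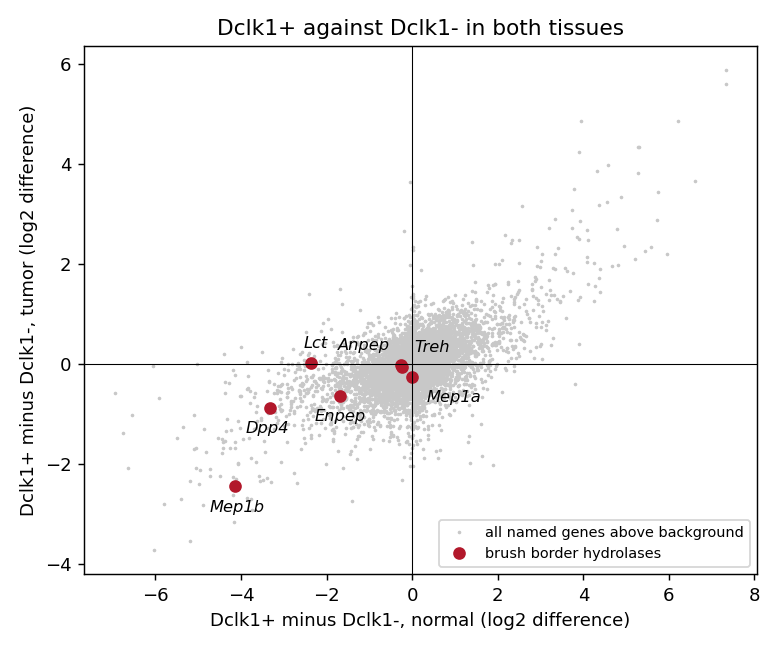
Dclk1+ minus Dclk1- log2 difference in tumor (vertical axis) against the same difference in normal tissue (horizontal axis) for each named gene above background on any array (grey) and the 7 measured hydrolases (red). Mep1b, Dpp4 and Enpep lie to the lower left, Lct lies on the horizontal line with a difference of -2.37 in normal tissue, and Mep1a, Anpep and Treh lie at the centre, where the tumor value of Treh sets one background spot against another.

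On the Dclk1- tumor array, local background made up a larger share of the spot than on the Dclk1- normal array for each measured member but Mep1a. No such count was made over all probes, so this cannot be read as particular to the members. The spots were also dimmer on the tumor array for Dpp4 (105 against 710), Mep1b (424 against 1968), Enpep (63.8 against 161) and Lct (31.1 against 375). In Dclk1- tumor cells the Dpp4 spot measured 105 (105.4) and its local background 102 (101.7), which is 96.5% of the spot. The same share was 74.9% for Mep1b, 65.6% for Enpep and 84.5% for Lct on that array, but 18.3% for Dpp4, 19.6% for Mep1b, 16.3% for Enpep and 24.1% for Lct on the Dclk1- normal array. For Lct the spot was dim, and its local background of 26.3 was near the array's median of 22.8. For Mep1a the share was 47.0% in Dclk1- tumor and 51.6% in Dclk1- normal cells. With the local background subtracted, the tumor difference of Dclk1+ against Dclk1- cells was 0.04 for Dpp4, -0.35 for Enpep and -1.43 for Mep1b, while in normal tissue Dpp4 stayed at -2.73, Mep1b at -3.75, Lct at -1.85 and Enpep at -1.24. Over all probes the logs of spot and local background correlated at 0.969 and 0.979 on the Dclk1+ and Dclk1- tumor arrays and at 0.938 and 0.921 on the Dclk1+ and Dclk1- normal arrays. The part of local background in these values was not tested.

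**Figure D3:**
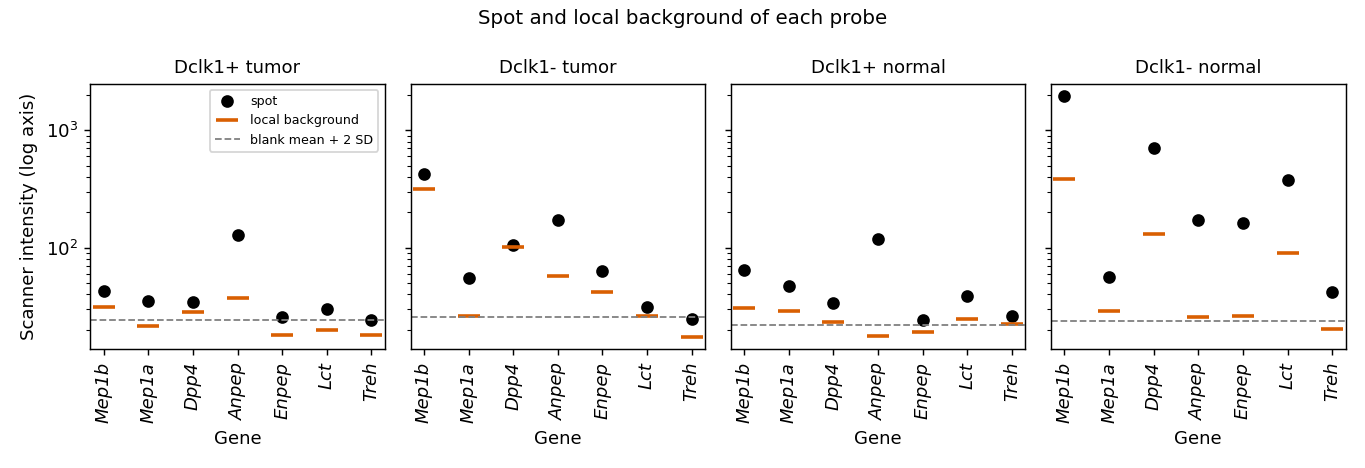
Scanner intensity (log axis) of each probe's spot (black points) and its local background (orange bars) on the 4 arrays; the dashed line is the mean of the blank spots plus 2 SD. On the Dclk1- tumor array the Dpp4 spot and its local background nearly coincide, at 105 and 102, whereas on the Dclk1- normal array the Dpp4 spot is at 710.1 and its local background at 129.7.

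Between tissues, 4 members were lower in tumor in the Dclk1- fraction. Of the 7 measured members 4 were at least 2-fold lower in Dclk1- tumor than in Dclk1- normal cells and 0 were higher, against 5.24% lower and 5.83% higher among 12340 genes. The median was -1.05, against -0.02 over all genes. Lct was at -2.66, with a normal level 52.2-fold the tumor level, Dpp4 at -2.46 (10.1-fold), Mep1b at -2.16 (5.85-fold) and Enpep at -1.05 (4.13-fold). With the local background subtracted Enpep was at -0.88 and the count was 3, beside 5.45% of all genes. Treh, above background only in Dclk1- normal cells of this pair, was at least 1.27-fold lower in tumor. The bound sets the bright array against the dimmest probe above background, or the dim probe itself if higher, and the offset shrinks it. With plain subtraction of the blank mean Treh was at -3.10. In the authors' values, with the unlisted tumor probe set to the array's lowest listed value, it was at -3.58. The count was then 5 of 7 on both scales, beside 21.9% and 29.2% of all genes. Mep1a and Anpep were at -0.05 and -0.13.

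In Dclk1+ cells the tissues differed by less than 2-fold on the log2 scale for every measured member. None of the 7 members was 2-fold apart between Dclk1+ tumor and Dclk1+ normal cells, against 4.2% lower and 4.27% higher among 12869 genes, and the members spanned -0.47 (Mep1b) to 0.05 (Anpep). This depends on how dim signals are treated. In the authors' values the Dclk1+ tumor level was 43.4% of the Dclk1+ normal level for Mep1a, 40.7% for Mep1b and 37.5% for Lct, each over 2-fold lower. With Treh, which is not listed for Dclk1+ tumor cells and was set to the lowest listed value of that array, 4 members were 2-fold lower on that scale, beside 27.2% of all genes, so the count on that scale cannot be read against 4.2%. The 2 comparisons of tumor with normal cells each share an array with the Dclk1 comparison in tumor and another with that in normal tissue. The steep values of Dclk1- normal cells enter both the comparison within normal tissue and the one between Dclk1- samples.

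The 3 hydrolases that were 2-fold lower in Dclk1+ against Dclk1- normal cells and in Dclk1- tumor against Dclk1- normal cells and have an entry in RefSeq's promoter table are shown here with Anpep, which stayed level. Each line holds the 250 bases before the start that this table gives in GRCm38.p6, read 5′ to 3′ on the strand of the gene, except that the Dpp4 line stops after 166 bases, since the remaining 84 lie inside the annotated gene. They lie at chr1:128328319-128328568 (Lct, minus strand), chr2:62412316-62412481 (Dpp4, minus strand), chr3:129332750-129332999 (Enpep, minus strand) and chr7:79848211-79848460 (Anpep, minus strand). Capitals mark matches, on either strand, to core letters of factors known as activators of lactase and sucrase-isomaltase. The letters searched were AGATAA for the zinc finger factors of the GATA family, TTTATG for the caudal homeobox factors CDX, GTTAAT for the homeodomain factor HNF1, and CAAAGT for the nuclear receptor HNF4.
Lct: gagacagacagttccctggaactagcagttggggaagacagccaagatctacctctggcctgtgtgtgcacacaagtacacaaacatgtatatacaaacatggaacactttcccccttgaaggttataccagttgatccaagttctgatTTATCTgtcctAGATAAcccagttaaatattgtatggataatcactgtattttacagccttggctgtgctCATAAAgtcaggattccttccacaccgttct
Dpp4: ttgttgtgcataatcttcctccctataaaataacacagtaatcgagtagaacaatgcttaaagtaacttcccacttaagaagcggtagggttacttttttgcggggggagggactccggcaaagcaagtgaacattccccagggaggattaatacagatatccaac
Enpep: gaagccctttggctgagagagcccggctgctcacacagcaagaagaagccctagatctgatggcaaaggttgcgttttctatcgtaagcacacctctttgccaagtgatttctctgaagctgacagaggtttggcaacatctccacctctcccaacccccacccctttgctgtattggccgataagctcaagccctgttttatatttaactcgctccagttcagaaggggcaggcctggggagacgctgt
Anpep: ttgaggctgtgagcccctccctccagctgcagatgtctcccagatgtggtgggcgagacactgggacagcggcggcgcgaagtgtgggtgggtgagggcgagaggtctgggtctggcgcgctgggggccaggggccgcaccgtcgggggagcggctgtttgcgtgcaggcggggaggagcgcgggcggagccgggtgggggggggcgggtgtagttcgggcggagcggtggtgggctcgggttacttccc

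The Lct line held 2 GATA matches and 1 CDX match, and the Dpp4, Enpep and Anpep lines none of the 4. No matches overlapped. The Dpp4 line is shorter than the others, and its full window of 250 bases, with those inside the annotated gene, held 1 GATA match. Among 32851 RefSeq promoter windows of 250 bases, 9.99% held AGATAA, 10.8% TTTATG, 6.43% GTTAAT and 12.6% CAAAGT on either strand, so single matches are common. The lines differ in base composition: G and C made up 42.8% of the Lct line, 42.8% of the Dpp4, 52.4% of the Enpep and 72.8% of the Anpep line, against a median of 52.4% over all windows. Of the members not shown, the Treh window held 2 HNF4 matches. The Mep1a window, which lies wholly inside the annotated gene, held 1 HNF4 match. The window of Sis, which was not measured, held 1 CDX and 1 HNF1 match. A match describes letters only, and says nothing of binding in these cells.

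The genes nearest to each member over the 4 arrays, by Euclidean distance between log2 profiles centred on their own mean among 2879 genes, were enterocyte and villus genes for Mep1b: Fabp2, an intestinal fatty acid binding protein (distance 0.35), and Dpep1, a membrane dipeptidase (0.37). For Dpp4 they were Ccl25, a chemokine of the small intestinal epithelium (0.18), and Cgref1 (0.27). For Enpep they were Zfp385c (0.11) and Fgfbp1, a carrier of fibroblast growth factors (0.12). For Lct they were Ephb3, an ephrin receptor (0.23), and Bmp8a, a bone morphogenetic protein (0.26). The nearest genes of Mep1a (Cdk5rap3 and Acp2), Anpep (Hnrnpa0 and Tpd52) and Treh (Dyrk1a and Ykt6) were further away, at 0.45 to 0.60, than the members' own ranges of 0.23 to 0.38, since only genes with a range of 1 log2 or more were searched. With 4 arrays, such likeness is a description only.

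Other hydrolases of the brush border were lower in part. Of 15 with a probe, 13 were above background in the normal pair, and 5 of these were lower by 2-fold or more and 1 was higher in the Dclk1+ fraction, with a median of -0.60. Dpep1, which splits dipeptides, stood at 29.4 in Dclk1+ and 1516 in Dclk1- normal cells (log2 difference -4.07). Tmprss15, the enteropeptidase that activates trypsinogen, was at least 8.04-fold lower in Dclk1+ normal cells, where it was not above background, against 507 (507.2) in Dclk1- normal cells. Enpp3, a nucleotide pyrophosphatase, was at -3.07, Asah2, a neutral ceramidase, at -2.92, and Ggt1, a gamma-glutamyl transferase, was at least 2.23-fold lower. Short of 2-fold on this scale, and named after their values were seen, were Xpnpep2, a proline aminopeptidase, at -0.93, and Naaladl1, a peptidase of the same membrane, at -0.60, although their Dclk1- levels were 3.15-fold and 8.12-fold the Dclk1+ levels.

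The exception was Cpm, a membrane carboxypeptidase, at 483 (482.6) in Dclk1+ and 79.5 in Dclk1- normal cells, a log2 difference of 1.69; in tumor it was at 0.84. In tumor 1 of 11 other hydrolases was 2-fold lower in the Dclk1+ fraction, Dpep1, with levels of 19.7 (Dclk1+) and 246 (Dclk1-), and 0 were higher. Between Dclk1- tumor and Dclk1- normal cells 5 of 13 were lower and 0 higher, and between the Dclk1+ samples 1 of 10 was lower, Cpm at -1.17, and 0 were higher.

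Transporters that take up the products were lower in Dclk1+ cells of normal tissue as well. Of 9 with a probe, 8 were above background in normal tissue, and 6 of the 8 were lower by 2-fold or more in Dclk1+ cells, with 0 higher, with a median of -1.94. Slc3a1, the heavy chain of the cystine and dibasic amino acid transporter, was at 204 (204.3) in Dclk1+ and 7726 in Dclk1- normal cells (-5.05). Slc6a19, the neutral amino acid transporter, was at -4.38, Slc5a1, the sodium glucose cotransporter, at -3.44, and Slc2a5, the fructose transporter, at -1.66. In tumor 3 of 8 were lower, Slc3a1 (-2.08), Slc5a1 (-1.75) and Slc6a19 (-1.55), and 0 higher. Between Dclk1- tumor and Dclk1- normal cells 5 of 8 were lower and 0 higher, and between the Dclk1+ samples none of 8 was 2-fold apart.

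The proteins that build the microvillus did not follow the 4 lower hydrolases throughout. Vil1, the actin bundler villin, had tumor levels of 3674 (Dclk1+) and 1682 (Dclk1-) and normal levels of 19096 (Dclk1+) and 12106 (Dclk1-), with log2 differences of 0.77 and 0.05. In the normal pair 3 of 7 frame genes were lower in Dclk1+ cells and 0 higher, among them Pls1, the bundler fimbrin, at -2.59. In the tumor pair 1 of 6 was lower, Pls1 at -1.70. Between tissues Vil1 was lower in tumor in both fractions, at -1.92 in Dclk1+ and -2.64 in Dclk1- cells, where 1 of 7 and 3 of 7 frame genes were lower and 0 higher.

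Cytosolic peptidases, which finish the short peptides inside the cell, were mixed. In the normal pair 2 of 7 were lower in Dclk1+ cells, Acy1, an aminoacylase (-3.19), and Pepd, the proline dipeptidase (-2.82), and 1 was higher, Dpp3 (1.07). In the tumor pair 1 of 7 was lower, Acy1 (-1.05), and 0 were higher. Between Dclk1+ tumor and normal cells 1 was lower, Lap3 (-1.06), and 1 higher, Npepps (1.04), and between the Dclk1- samples 2 were lower, Pepd (-2.48) and Acy1 (-1.93), and 1 higher, Npepps (1.23).

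**Figure D4:**
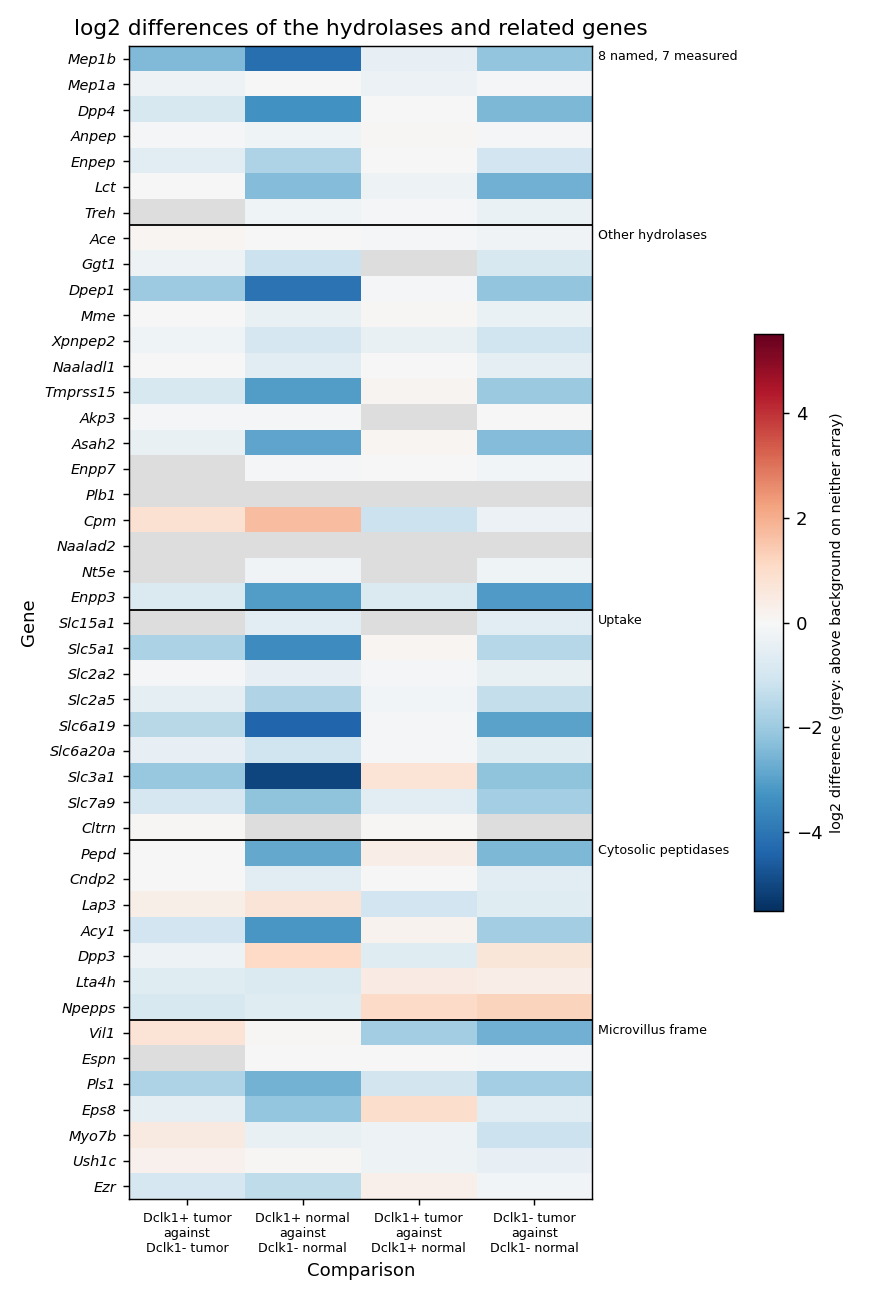
log2 differences in the 4 comparisons (columns) of the 7 measured hydrolases and of related genes (rows, in blocks divided by black lines); blue is lower and red higher in the sample named at the top of each column label, and grey marks genes above background on neither array. The deepest blue lies in the Dclk1+ against Dclk1- normal column, with Slc3a1 at -5.05 and Mep1b at -4.14, and the Dclk1+ tumor against Dclk1+ normal column is pale for all 7 members.

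Transcription factors known to regulate Sis or Lct were closer to level than the members in the normal pair. Of 9 with a probe, 8 were above background there, with a median of -0.07, 1 higher in Dclk1+ cells and 0 lower. Over all genes 5.66% were higher and 5.92% lower. Cdx1, a caudal homeobox factor, was the higher one, at 726 in Dclk1+ and 206 in Dclk1- normal cells (1.24), and the related factor Cdx2 was at 0.23. In the tumor pair Cdx1 was at 1.38 and Gata6 at -1.22, 1 higher and 1 lower of 8, beside 1.76% and 2.13% of all genes. In tumor against normal cells Hnf4a and Cdx2 were 2-fold lower in both fractions, at -1.12 and -1.15 in Dclk1+ and -1.71 and -1.33 in Dclk1- cells, 2 of 7 and 2 of 8 genes, with 0 higher. Over all genes 4.2% (Dclk1+) and 5.24% (Dclk1-) were lower. Between the Dclk1+ samples 0 of the 7 members were 2-fold apart, so there the regulators were not closer to level. Gata4 was not above background on any array.

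Markers of other cells and of gut segments moved with some of these values. The secretory lineages were lower in Dclk1+ normal cells too: 5 of 5 goblet cell markers (median -5.40), 3 of 4 Paneth cell markers (-3.03) and 4 of 6 enteroendocrine markers (-4.22) were lower by 2-fold or more. Goblet markers summed to 16845 (Dclk1+) and 34412 (Dclk1-) in tumors and to 7480 (Dclk1+) and 173747 (Dclk1-) in normal tissue. In Dclk1- tumor against Dclk1- normal cells 4 of 5 goblet and 5 of 6 enteroendocrine markers were lower, while 3 of 4 Paneth markers were higher, with sums of 21173 in Dclk1- tumor and 4618 in Dclk1- normal cells.

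Dpp4 is also carried by T cells, and the 5 T cell markers with a probe summed to 24.5 (Dclk1+) and 14.2 (Dclk1-) in tumors and to 82.9 (Dclk1+) and 149 (148.6) (Dclk1-) in normal tissue; Cd3e was above background on none of the arrays, and Cd8a gave 67.1 of the sum in Dclk1+ normal and 126 (126.4) in Dclk1- normal cells. Anpep is also carried by myeloid cells, whose 6 markers with a probe summed to 1257 (Dclk1+) and 3259 (Dclk1-) in tumors and to 1382 (Dclk1+) and 507 (507.2) (Dclk1-) in normal tissue, 5 of 6 above background on each array and Itgam on none. Enpep and Anpep also occur on vascular cells, whose 5 endothelial markers summed to between 10.4 and 38.0 (Pecam1 and Cdh5 above background on none) and whose 4 pericyte markers to between 45.9 and 176 (175.9). Fibroblast markers, 6 with a probe, summed to between 39.6 and 188 (187.9), highest in Dclk1- tumor cells.

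Hydrolases also vary along the gut. The 5 distal markers with a probe, such as those of ileal bile acid uptake, summed to 3311 (Dclk1+) and 16282 (Dclk1-) in tumors and to 5738 (Dclk1+) and 46579 (Dclk1-) in normal tissue. The 3 proximal markers summed to 331 (330.9) (Dclk1+) and 1882 (Dclk1-) in tumors and to 952 (Dclk1+) and 13363 (Dclk1-) in normal tissue. Both sums were thus highest in Dclk1- normal cells, as were the levels of the 4 lower hydrolases. By gene, 2 of 5 distal markers were at least 2-fold lower in Dclk1- tumor than in Dclk1- normal cells, with a range of -1.55 to 0.04. Of the 3 proximal markers, 2 were above background in this pair and both were 2-fold lower, while Gata4 was not above background on any array. The part of other cell types and of gut segment in the hydrolase values was not tested.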

How the data were processed

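Total RNA of sorted cells was amplified, labelled with Cy5 and hybridised to 1-colour arrays, per the labels' protocols. Each scanner file gives, per the file headers, median spot and local background intensities joined from scans at 3 gains. The authors' deposited table holds intensity values; set against the scanner files, each column was a straight line of the spot intensity (r of 1 over listed probes), with its zero near the mean of the blank spots and its median near 25. The sources used here do not name the scanner software or the normalization method.

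Spot intensities, with flagged spots dropped (3 on the Dclk1- tumor and 1 on the Dclk1- normal array), were corrected with normexp (offset 50) on all spots in limma 3.58.1 (R 4.3.3), quantile normalized over the 4 arrays and put on the log2 scale. The background correction and normalization were run on 4 simulated arrays, all drawn from the Dclk1- normal array with planted changes. That run does not cover differences between arrays in blank level or brightness. Platform symbols were matched to the GRCm38.p6 RefSeq table, where 12622 were current, 3921 synonyms of 1 gene, 85 ambiguous and 3 unmatched; for the 229 genes with several probes the brightest was kept. All 7 members have 1 probe. The 8 genes, the further gene lists and the naming rule (members, listed genes at least 2-fold apart, and 2 nearest genes for each member) were chosen with earlier results of these data known. The 10 alternatives that were run are named in the closing section. Promoter sequences are RefSeq's, the 250 bases before the start in its promoter table, without bases inside the annotated gene.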

Additional observations from a re-analysis of the deposited data

How the results depend on the processing

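The 10 alternatives were an offset of 16, plain subtraction of the blank mean, local background subtracted, median and 75th percentile scaling, the authors' table, a background limit of 3 SD, no filter on dim probes, the mean of a gene's probes and a 4-fold threshold. In all of them 0 members were 2-fold higher in any comparison. The number at least 2-fold lower in Dclk1+ against Dclk1- tumor cells, 1 as reported, was 2 with median scaling and 3 with an offset of 16, with plain subtraction of the blank mean and in the authors' table, beside 3.61%, 4.63%, 15.9% and 11.2% of all genes in that order. Between Dclk1+ tumor and Dclk1+ normal cells it was 0 as reported and 4 with plain subtraction and in the authors' table, beside 21.8% and 27.2% of all genes. Plain subtraction and the authors' table hold no added offset, and probes the table does not list were set to the array's lowest listed value; the cause of the other changes was not tested. At 2-fold, Dclk1+ against Dclk1- normal cells gave 4, as reported, beside 4.37% to 8.81% of all genes. It gave 5 with plain subtraction and in the authors' table, beside 19.8% and 16%. Dclk1- tumor against Dclk1- normal cells gave 4, as reported, beside 3.95% to 8.17%. It gave 3 with the local background subtracted, beside 5.45%. With plain subtraction and in the authors' table it gave 5, beside 21.9% and 29.2%. At 4-fold both comparisons gave 3, beside 2.16% and 1.3% of all genes in that order. Single differences were followed under each alternative except the 3 SD limit, the missing filter and the 4-fold threshold. Of these 196 differences, 165 stayed on their side of 2-fold, 19 passed it and 1 fell short of it. The latter was Enpep in Dclk1- cells, at -0.88 with the local background subtracted. The remaining 11, all under 2-fold in either setting, changed sign. Averaging probes could change nothing, as each member has 1 probe, so the part of the 165 under that setting was fixed in advance. No paired analysis was possible because each group has 1 array. Dim members (Mep1a, Treh, Dpp4 in Dclk1+ cells, and Enpep and Lct outside Dclk1- normal cells) are limited by their signal over background.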
